A study of Mus musculus with 4 samples.

Results

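The genes described here encode the machinery that builds peroxisomes and the enzymes and transporters that carry out lipid oxidation inside them. They were chosen by symbol from a list of 36 genes, of which 35 were present in a table of 12165 expressed genes. Acox2, the remaining gene of the list, was not analysed here. The table holds RNA-seq of brown adipose tissue, the heat-producing fat depot, from mice lacking Ebf2 (Ebf2 KO, 2 libraries) and from wild-type mice (WT, 2 libraries). EBF2 is a DNA-binding protein that helps to set and keep the identity of brown fat cells. Both genotypes were of mixed strain, were 8 weeks old, ate chow and lived at room temperature. The labels do not say which part of Ebf2 was deleted, whether it was missing from all tissues, the sex of the mice, or whether each library came from a separate animal. P-values therefore measure the spread between these libraries, which may be technical, at least in WT. Values are RPKM, the reads of a gene divided by its length and by the size of the library, so levels can be compared between genes of different length.

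Peroxisomes are single-membrane organelles that shorten fatty acids which mitochondria handle poorly, such as very long-chain, branched-chain and dicarboxylic acids, and pass the shortened products on. Their matrix enzymes are made in the cytosol and imported by peroxins, the products of the Pex genes, while separate peroxins place proteins into the membrane or divide the organelle. The first step of the peroxisomal cycle produces hydrogen peroxide, which catalase removes, and the same organelle starts the synthesis of ether lipids. In rodents, brown fat is rich in peroxisomes, which increase in number in the cold.

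The library totals behind the RPKM values lay between 162782640 and 176568920 reads in Ebf2 KO and between 176574890 and 199678916 in WT, and the listed genes held 59.0% and 61.7% of them in Ebf2 KO against 43.2% and 45.4% in WT. The median log2(RPKM + 1) change of all genes, Ebf2 KO over WT, was 0.45, and values after every library had been centred on its own median are given beside those on RPKM. Ebf2 itself had 0.391 and 0.352 RPKM in Ebf2 KO and 2.97 and 2.63 in WT, and it passed the test (limma adjusted p = 0.00536, and 0.000239 after centring). Ucp1, the uncoupling protein that defines brown fat, had 7.39 and 2.86 RPKM in Ebf2 KO and 5018 and 5733 in WT, so this marker of the labelled tissue was nearly absent in Ebf2 KO. Xist, the RNA that coats the silenced X chromosome in females, stood at 5.49 and 0.0353 RPKM in Ebf2 KO and at 5.05 and 6.19 in WT, so that Ebf2 KO replicate 2 stood apart from the other libraries. With 17356 and 103 Xist reads, the Ebf2 KO libraries were not made from the same tissue sample. Sex may thus differ within Ebf2 KO and between the genotypes, and its part in the results was not tested. The 11 skeletal muscle markers summed to 9726 and 10622 RPKM in Ebf2 KO and to 1036 and 2681 in WT, with 8 called higher on RPKM and 8 after centring. The 7 fibroblast markers summed to 1416 and 2608 RPKM in Ebf2 KO and to 267 and 587 in WT, all 7 being called higher on RPKM and 6 after centring. The 8 general adipocyte markers summed to 39545 and 33148 RPKM in Ebf2 KO and to 20387 and 14796 in WT, with 4 called higher and 0 lower on RPKM, but 1 higher and 1 lower after centring. The 9 brown fat markers summed to 949 and 363 RPKM in Ebf2 KO and to 11269 and 12131 in WT, with 8 called lower on RPKM and 9 after centring. Of 7 macrophage markers, 6 were listed and 3 were called higher on RPKM and 2 after centring, summing to 80.6 and 75.7 RPKM in Ebf2 KO and to 17.2 and 45.1 in WT. The 5 endothelial markers had 0 calls on either scale (at an unadjusted limma p under 0.05, 1 higher on RPKM and 1 lower after centring), with 93.0 and 105 RPKM in Ebf2 KO and 64.7 and 104 in WT. Of 5 hepatocyte markers, 3 were listed, with 3 called higher on RPKM and 2 after centring, at 23.4 and 11.9 RPKM in Ebf2 KO and 1.28 and 0.795 in WT. The part of these other cell types in the results below was not tested, and in bulk tissue fewer cells of a type and less RNA per cell cannot be told apart.

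The peroxisomal genes were called in both directions. The very long-chain acyl-CoA transporter Abcd2, the channel protein Pxmp2 and the thiolase Acaa1b were higher in Ebf2 KO on either scale, and the transporter Abcd3 and the phytanic acid enzyme Phyh were lower on either scale. Of the 35 genes, 9 were called higher and 2 lower on RPKM at an adjusted p under 0.05 (limma on log2(RPKM + 1), adjusted over all 12165 genes), where 24.4% of all genes were called higher and 3.54% lower. After median centring 3 were called higher and 7 lower, against 8.42% and 10.3% of all genes. Quantile normalization gave 3 higher and 5 lower (8.61% and 8.3% of all genes), and limma-voom on reads recovered from the RPKM values gave 3 higher and 6 lower (8.05% and 8.5%). The authors' deposited table, from edgeR with its own scaling, held 3 higher and 8 lower at an FDR under 0.05, against 10.9% and 10.5% of all genes in it. The median log2 change of the 35 genes was 0.35 on RPKM and -0.17 after centring, beside 0.45 and -0.07 for all genes. RPKM of the genotypes did not overlap for 26 of the 35, with 20 higher and 6 lower in Ebf2 KO, where 65.4% of all genes were higher without overlap and 9.3% lower. Without Ebf2 KO replicate 2 the test called 4 higher and 2 lower on RPKM (6.66% and 1.36% of all genes) and 3 higher and 3 lower after centring (6.13% and 5.98%). In fits that leave out a library, the lone library of its genotype is assumed to vary like the others.

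**Figure D1:**
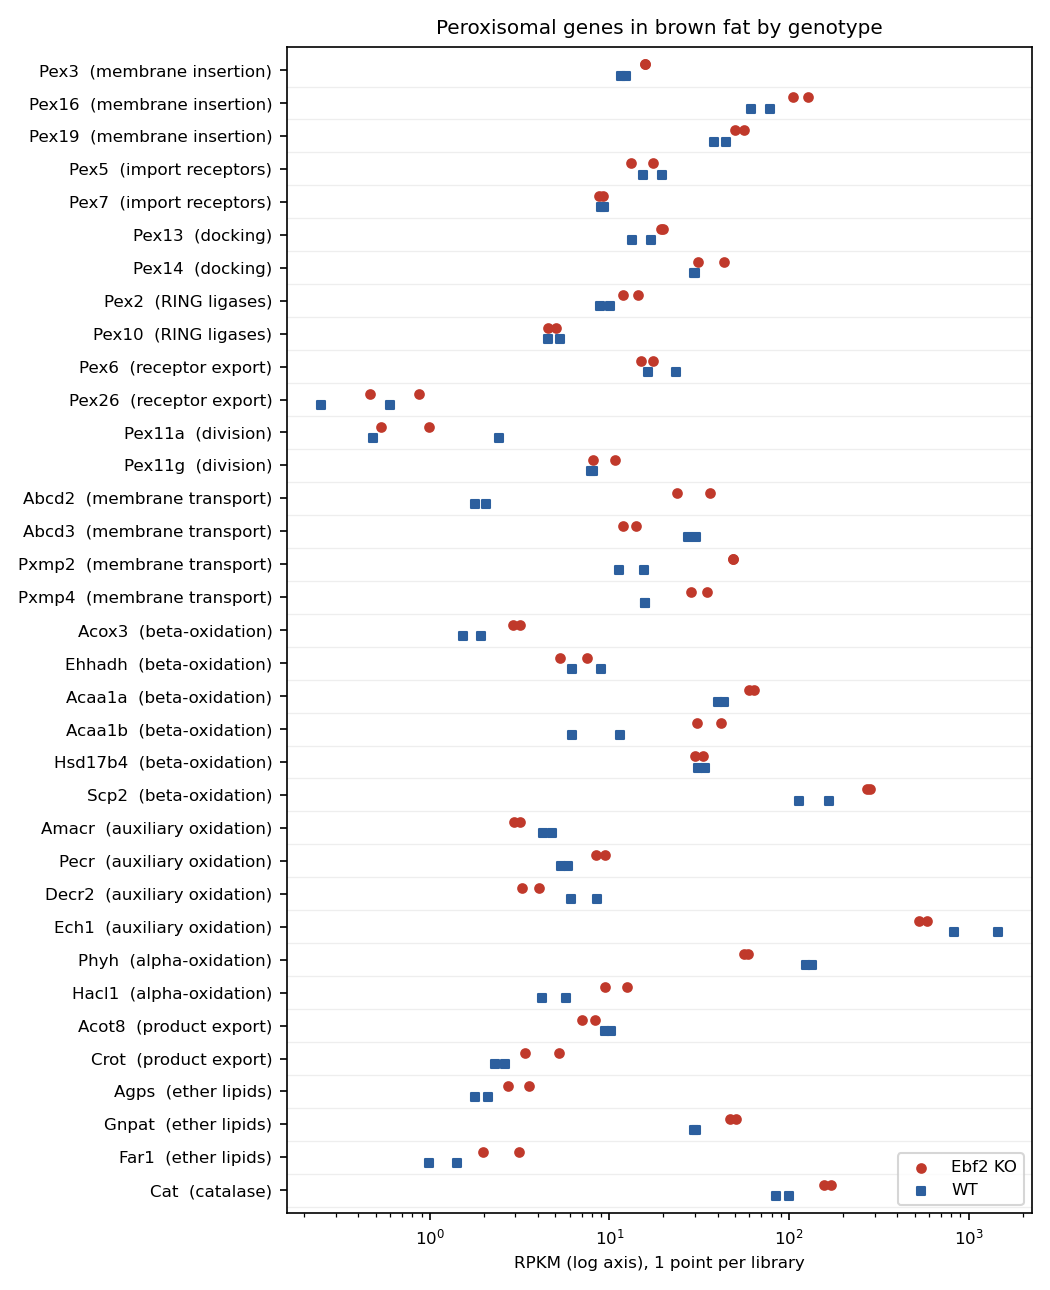
Expression of the 35 peroxisomal genes in every library, in RPKM on a log axis, with genes grouped by role and Ebf2 KO and WT libraries as separate points. Abcd2 shows the widest gap, with Ebf2 KO libraries at 36.3 and 23.8 RPKM and WT libraries at 1.78 and 2.07, and Ech1 is the most abundant gene in all 4 libraries.

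The genes for proteins of the peroxisomal membrane included Abcd2, which had the largest change of the 35 genes. ABCD2 and ABCD3 are transporters of the ABC family that carry acyl-CoA esters into the organelle. ABCD2 prefers very long-chain and polyunsaturated species and is abundant in mouse white fat, and ABCD3, also called PMP70, takes branched-chain and dicarboxylic acyl-CoAs. Abcd2 had 36.3 and 23.8 RPKM in the Ebf2 KO libraries, against 1.78 and 2.07 RPKM in the WT libraries. Both Ebf2 KO libraries were far above both WT libraries. Its mean of 30.1 ± 8.85 RPKM in Ebf2 KO was 15.7 times that of 1.92 ± 0.204 in WT (SD, n = 2 each), and the log2 change of 3.38 (SE 0.265) passed the test at a limma adjusted p of 0.00094, with 2.86 and 0.000185 after centring. Abcd3 had 11.8 and 14.1 RPKM in Ebf2 KO, against 27.3 and 30.4 RPKM in WT. Here both Ebf2 KO libraries lay under both WT libraries. Its mean was 2.22-fold lower in Ebf2 KO, and the log2 change of -1.10 (SE 0.208, limma adjusted p = 0.0120) was -1.62 after centring (adjusted p = 0.00190). Abcd2 and Abcd3 were the 2 genes among the 35 that kept their call in each of the 15 other fits made and in the authors' deposited table.

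Pxmp2, which encodes a pore-forming protein of the peroxisomal membrane, had 48.9 and 48.6 RPKM in Ebf2 KO and 15.6 and 11.3 RPKM in WT. The groups were well apart, and the mean was 3.62 times higher in Ebf2 KO (log2 change 1.80, SE 0.222, limma adjusted p = 0.00348, and 0.0163 after centring). The centred call was lost without WT replicate 2 (adjusted p = 0.0734). Pxmp4, a small membrane protein of the organelle, had 35.1 and 28.5 RPKM in Ebf2 KO and 15.8 and 15.7 in WT, again without overlap. It rose 2.02-fold on RPKM (limma adjusted p = 0.0173), but its log2 change was 0.44 after centring (adjusted p = 0.306), and without Ebf2 KO replicate 1 the call on RPKM was lost too (0.0776).

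The ratio of Abcd2 to Abcd3 within a library does not depend on how libraries are scaled to each other. It was 3.07 and 1.69 in the Ebf2 KO libraries, against 0.0650 and 0.0679 in the WT libraries. Abcd3 thus had the higher RPKM in both WT libraries and Abcd2 in both Ebf2 KO libraries, a difference of 5.10 in mean log2 ratio. With 2 libraries against 2, an exact permutation test cannot go below p = 0.333, so ratios are given without a test. The promoter of Abcd3 is shown because Abcd3 is the transporter that fell; the promoter table held none for Abcd2 or Pxmp2. Of 2 RefSeq starts of Abcd3, the one with more motif matches was printed, and the other had no NRF1 match. The 250 bases before the printed start are at chr3:121815303-121815552 of GRCm38.p6, minus strand, read 5′ to 3′ along the gene. They were taken from RefSeq, on a later build than the mm9 of the expression table. Capitals mark the single match to the binding element of nuclear respiratory factor 1 (NRF1), searched as GCGCA and GCGC with 1 base between them, which lies on the opposite strand and begins 60 bases before the start.
Abcd3: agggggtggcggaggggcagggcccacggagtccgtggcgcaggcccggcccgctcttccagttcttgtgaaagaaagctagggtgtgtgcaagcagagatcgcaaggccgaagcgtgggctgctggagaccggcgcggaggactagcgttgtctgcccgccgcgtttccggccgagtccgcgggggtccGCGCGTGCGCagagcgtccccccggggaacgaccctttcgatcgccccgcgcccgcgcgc

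Among enzymes of the beta-oxidation cycle, the thiolases, which perform the last cleavage, gave the largest difference. Acaa1b had 41.9 and 30.8 RPKM in Ebf2 KO, against 6.20 and 11.4 RPKM in WT. No Ebf2 KO library came near a WT library. The mean of 36.3 ± 7.79 RPKM in Ebf2 KO was 4.12 times that of 8.82 ± 3.70 in WT (SD, n = 2 each), with a log2 change of 1.96 (SE 0.302, limma adjusted p = 0.0067) and of 1.44 after centring (adjusted p = 0.00759). The centred call was lost without WT replicate 1 (adjusted p = 0.0744). Its close relative Acaa1a had 63.7 and 60.01 RPKM in Ebf2 KO and 43.6 and 40.3 RPKM in WT. Those groups did not overlap either, but the 1.48-fold difference did not pass the test (limma adjusted p = 0.0643), and it was 0.03 on the log2 scale after centring. The ratio of Acaa1b to Acaa1a was 0.657 and 0.514 in Ebf2 KO and 0.142 and 0.284 in WT, so that Acaa1b was the lower of the pair in every library and closer to Acaa1a in Ebf2 KO. The values of both genes are uncertain where the counting split shared reads: 35.5% of the 50-base words of the Acaa1b transcript also occur in that of Acaa1a. Acaa1a also shares 6.57% of its exonic bases with Myd88 on the opposite strand.

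The thiolase promoters are shown because the pair differed unequally between genotypes although the transcripts are alike. Both are 250 bases long, lie before the gene's start on GRCm38.p6 (RefSeq) and are read 5′ to 3′ along the gene. Acaa1b is at chr9:119157094-119157343 on the minus strand and Acaa1a at chr9:119341044-119341293 on the plus strand. Capitals mark each CCAAT box, written ATTGG where it lies on the opposite strand. They begin 185 and 38 bases before the start in Acaa1b, and 199, 122 and 107 bases before it in Acaa1a.
Acaa1b: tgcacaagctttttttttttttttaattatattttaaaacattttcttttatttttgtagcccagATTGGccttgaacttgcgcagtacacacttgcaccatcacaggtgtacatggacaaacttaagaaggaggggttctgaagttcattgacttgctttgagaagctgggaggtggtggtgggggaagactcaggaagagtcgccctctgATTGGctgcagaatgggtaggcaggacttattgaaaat
Acaa1a: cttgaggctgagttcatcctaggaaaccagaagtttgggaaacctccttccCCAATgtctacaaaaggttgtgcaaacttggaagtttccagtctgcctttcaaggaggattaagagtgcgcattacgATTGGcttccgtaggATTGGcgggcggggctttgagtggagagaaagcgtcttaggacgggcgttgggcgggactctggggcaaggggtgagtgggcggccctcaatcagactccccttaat

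The other enzymes of the cycle differed less. Scp2, whose gene yields both a thiolase for branched chains and a lipid transfer protein, had 284 and 272 RPKM in Ebf2 KO and 166 and 114 RPKM in WT. It rose 1.98-fold on RPKM without overlap (limma adjusted p = 0.0259), and its log2 change was 0.48 after centring (adjusted p = 0.451). The call on RPKM was lost without Ebf2 KO replicate 1 (0.0823) or replicate 2 (0.114). The bifunctional enzymes, which add water and then oxidise, had overlapping groups: Hsd17b4 had 29.9 and 33.0 RPKM in Ebf2 KO and 34.1 and 31.1 in WT. Ehhadh had 7.47 and 5.31 RPKM in Ebf2 KO and 6.15 and 8.94 in WT. Neither passed the test on RPKM (limma adjusted p = 0.858 and 0.567) or after centring (log2 change -0.57 for Hsd17b4, adjusted p = 0.181, and -0.73 for Ehhadh, 0.0675), although Ehhadh was lower in the authors' deposited table (FDR 0.0397). Acox3, an oxidase for branched chains, had 2.90 and 3.16 RPKM in Ebf2 KO and 1.52 and 1.93 in WT, with a limma adjusted p of 0.108 and a log2 change of 0.04 after centring.

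The enzymes grouped here as auxiliary had lower values in Ebf2 KO for 3 of 4 genes, but the calls depended on the scaling. Those 3, Ech1, Decr2 and Amacr, prepare double bonds or branched chains for the cycle. Ech1, a dienoyl-CoA isomerase found in both peroxisomes and mitochondria, had 532 and 585 RPKM in Ebf2 KO, against 830 and 1459 in WT. The groups did not overlap, and the WT libraries differed more from each other than the Ebf2 KO libraries did. The mean was 2.05-fold lower in Ebf2 KO, which missed the threshold on RPKM (limma adjusted p = 0.0611) and passed after centring (log2 change -1.50, adjusted p = 0.0466). That centred call was lost without Ebf2 KO replicate 1 (0.318), Ebf2 KO replicate 2 (0.411) or WT replicate 2 (0.0611), while without WT replicate 1 the difference on RPKM passed (9.24e-05). In the authors' deposited table the log2 change of Ech1 was -1.64 with an FDR of 7.92e-05.

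Decr2, the peroxisomal dienoyl-CoA reductase, had 3.24 and 4.06 RPKM in Ebf2 KO and 6.09 and 8.55 RPKM in WT. Both Ebf2 KO libraries were below both WT libraries. The 2.01-fold difference had a limma adjusted p of 0.0521 on RPKM and of 0.0018 after centring (log2 change -1.35), and the centred call held with any 1 library left out (0.00134 to 0.0208). Amacr, the racemase that turns branched acyl-CoAs into the form the cycle accepts, had 2.95 and 3.18 RPKM in Ebf2 KO and 4.81 and 4.26 in WT. It was called lower after centring (adjusted p = 0.0132) and not on RPKM (0.185), and the centred call was lost without WT replicate 1 (0.0821). Pecr, an enoyl-CoA reductase, was the exception, with 9.42 and 8.46 RPKM in Ebf2 KO and 5.90 and 5.41 in WT. Its adjusted p was 0.0862 on RPKM and its log2 change 0.05 after centring.

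The enzymes of alpha-oxidation, which removes 1 carbon from phytanic acid before beta-oxidation can begin, moved apart. Phyh, the hydroxylase of the first step, had 56.2 and 59.0 RPKM in Ebf2 KO, against 124 and 134 RPKM in WT. The replicates of each genotype were close and the genotypes well apart. The mean was 2.24-fold lower in Ebf2 KO (log2 change -1.15, SE 0.194, limma adjusted p = 0.00859) and the change was -1.67 after centring (adjusted p = 0.00521), a call lost there without Ebf2 KO replicate 2 (0.0588). Hacl1, the lyase that splits off the carbon, had 9.43 and 12.6 RPKM in Ebf2 KO and 4.22 and 5.74 RPKM in WT. It rose 2.21-fold on RPKM (limma adjusted p = 0.0288) and its log2 change was 0.48 after centring (adjusted p = 0.142). Without Ebf2 KO replicate 2 the call on RPKM was lost (0.208). Hacl1 shares 2.18% of its exonic bases with Btd on the opposite strand.

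The genes for the export of shortened products did not pass the test on RPKM. Acot8, a thioesterase that frees acids from CoA, had 8.32 and 7.02 RPKM in Ebf2 KO and 9.39 and 10.2 in WT. It was called lower after centring (adjusted p = 0.0322) and not on RPKM (0.278); the centred call was lost without Ebf2 KO replicate 2 (0.332), WT replicate 1 (0.141) or WT replicate 2 (0.0600), and 12.3% of its exonic bases overlap Snx21 on the opposite strand. Crot, which links medium-chain products to carnitine, had 3.39 and 5.25 RPKM in Ebf2 KO and 2.32 and 2.62 in WT, without overlap. The 1.75-fold difference had a limma adjusted p of 0.129, and its log2 change was 0.07 after centring (0.846).

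Catalase and the ether lipid enzymes had higher RPKM in Ebf2 KO, by about as much as the median gene or somewhat more. Cat had 171 and 157 RPKM in Ebf2 KO and 99.6 and 84.2 RPKM in WT, which do not overlap. It rose 1.79-fold on RPKM (limma adjusted p = 0.0263), and after centring its log2 change was 0.31 (adjusted p = 0.586). Leaving out Ebf2 KO replicate 1 or 2 ended the call on RPKM (0.112 and 0.120). Gnpat, the acyltransferase that begins ether lipid synthesis, had 50.9 and 46.9 RPKM in Ebf2 KO and 30.4 and 29.7 in WT. It rose 1.63-fold on RPKM (limma adjusted p = 0.0359; 0.149 and 0.153 without Ebf2 KO replicate 1 or 2), and its log2 change was 0.16 after centring (0.744). Its partner Agps, which exchanges the acyl chain for an alkyl chain, had 2.74 and 3.58 RPKM in Ebf2 KO and 1.79 and 2.12 in WT (limma adjusted p = 0.164, with a log2 change of -0.04 after centring). Far1, which makes the fatty alcohol used in that step, had 1.98 and 3.16 RPKM in Ebf2 KO and 0.993 and 1.42 in WT (0.0869, and 0.0490 without WT replicate 2), and its log2 change after centring was 0.15 (0.605). The Gnpat to Agps ratio was 18.6 and 13.1 in Ebf2 KO and 17.01 and 14.0 in WT, so the groups overlapped.

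**Figure D2:**
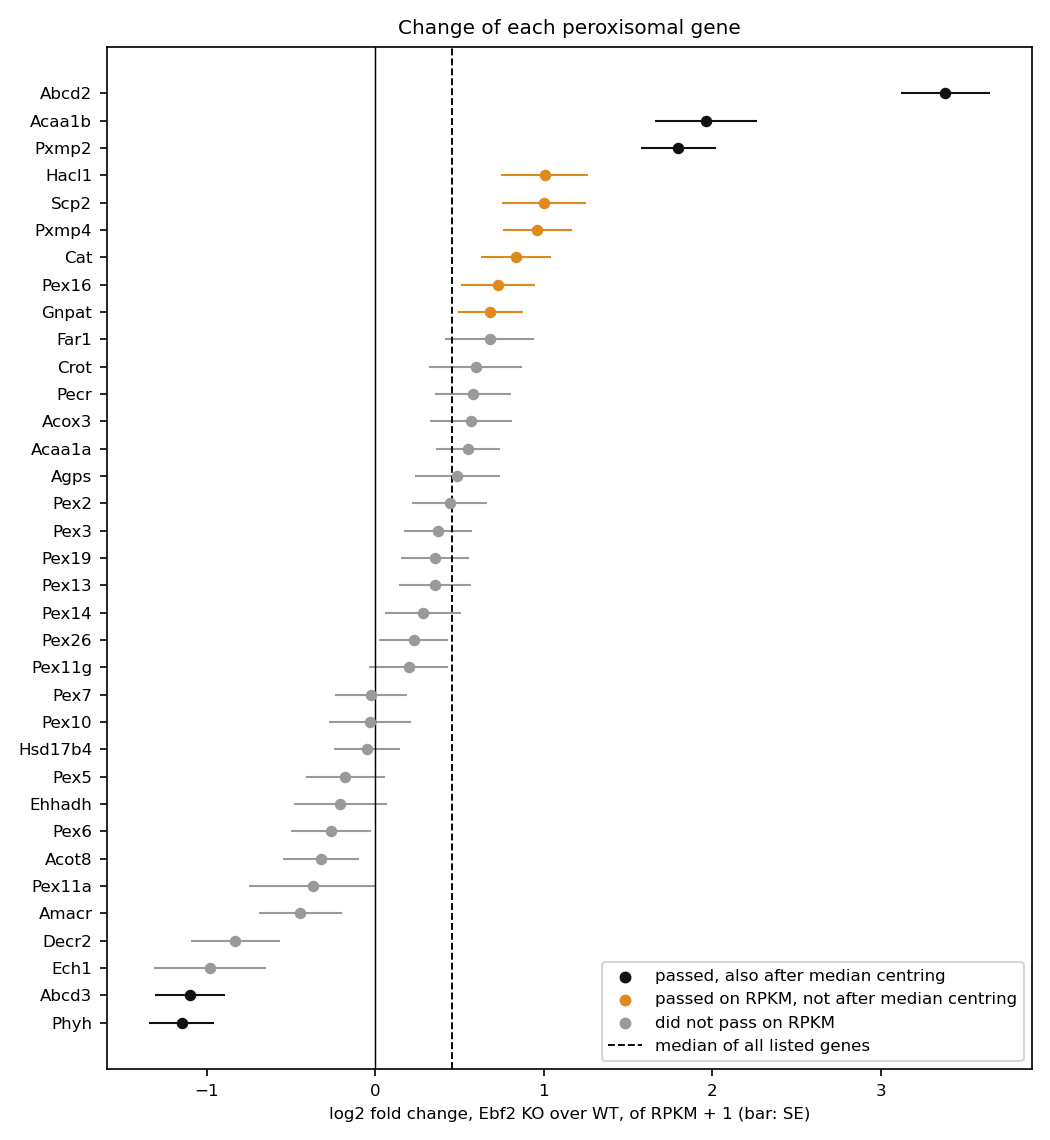
Log2 fold change of Ebf2 KO over WT, of RPKM + 1, for each of the 35 genes (points, with bars for the SE), ordered by size. Black points passed the test on RPKM and after median centring, and orange points on RPKM alone. Grey points did not pass on RPKM, whether or not they passed after centring. The dashed line is the median of all genes at 0.45. Abcd2 (3.38), Acaa1b (1.96) and Pxmp2 (1.80) lie farthest right, and Phyh (-1.15) and Abcd3 (-1.10) farthest left.

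Of the 13 Pex genes, few passed the test. Their log2 changes lay between -0.37 and 0.73 on RPKM and between -0.90 and 0.20 after centring, while those of the 22 other genes lay between -1.15 and 3.38 on RPKM. On RPKM 1, Pex16, was called higher and 0 lower, where 24.4% and 3.54% of all genes were. After centring 0 were called higher and 1, Pex11a, lower, where 8.42% and 10.3% of all genes were. At an unadjusted p under 0.05 limma gave 1 higher and 0 lower on RPKM, and 0 higher and 5 lower after centring. Limma-voom on reads called 0 of the 13 either way (0 higher and 4 lower unadjusted), and the authors' deposited table held 0 higher and 1 lower. Summed over the 13 genes, RPKM was 332 and 291 in Ebf2 KO and 250 and 229 in WT. Their median log2 change was 0.23 on RPKM and -0.30 after centring, beside 0.45 and -0.07 for all genes. On RPKM 8 of the 13 changes were above 0 and 5 below, and after centring 1 was above and 12 below.

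Membrane proteins are placed by a trio of peroxins: PEX19 is the carrier, PEX3 its docking site and PEX16 acts with PEX3. Pex16 had 127 and 106 RPKM in Ebf2 KO and 78.5 and 61.4 RPKM in WT, the highest of the 13 genes in every library. It rose 1.66-fold on RPKM (limma adjusted p = 0.0456), a call lost without Ebf2 KO replicate 1 (0.194), Ebf2 KO replicate 2 (0.130) or WT replicate 2 (0.0581), and its log2 change was 0.20 after centring (0.736). Pex19 had 56.2 and 50.3 RPKM in Ebf2 KO and 38.3 and 44.8 in WT, and Pex3 had 15.8 in both Ebf2 KO libraries and 12.4 and 11.6 in WT. Neither passed the test (limma adjusted p = 0.197 and 0.180), and both had log2 changes above 0 on RPKM and below 0 after centring (-0.17 for Pex19 and -0.15 for Pex3).

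For matrix import, PEX5 and PEX7 are the receptors and PEX13 and PEX14 dock them at the membrane. Pex5 had 17.5 and 13.2 RPKM in Ebf2 KO and 19.5 and 15.4 in WT, and Pex7 had 8.75 and 9.25 in Ebf2 KO and 8.95 and 9.39 in WT. Both receptors had overlapping groups. The docking genes did not overlap: Pex13 had 19.3 and 19.98 RPKM in Ebf2 KO and 17.1 and 13.4 in WT, and Pex14 had 43.5 and 31.0 in Ebf2 KO and 30.1 and 29.7 in WT. None of these 4 passed the test on RPKM (limma adjusted p between 0.224 and 0.935) or after centring, where their log2 changes were -0.70 for Pex5, -0.55 for Pex7, -0.17 for Pex13 and -0.24 for Pex14.

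The genes of receptor recycling and organelle division were low to moderate in level. Pex2, a subunit of the ubiquitin ligase that marks used receptors, had 11.9 and 14.5 RPKM in Ebf2 KO, against 8.82 and 10.0 RPKM in WT. Pex10, another subunit, had 5.03 and 4.57 RPKM in Ebf2 KO and 4.54 and 5.33 in WT. The Ebf2 KO libraries were the higher ones for Pex2, and the groups overlapped for Pex10. Pex6, an ATPase that pulls receptors out of the membrane, had 17.4 and 15.1 RPKM in Ebf2 KO and 23.4 and 16.4 in WT. Pex26, its membrane anchor, had 0.464 and 0.869 RPKM in Ebf2 KO and 0.248 and 0.597 in WT. Pex2 alone of these 4 had groups that did not overlap, and none was called on RPKM or after centring, while Pex6 was lower in the authors' deposited table (FDR 0.0447). Pex11a, which drives elongation and division and is a target of PPAR alpha in mice, had 0.986 and 0.538 RPKM in Ebf2 KO and 0.484 and 2.44 in WT. The WT libraries lay on either side of both Ebf2 KO libraries. Its call after centring (adjusted p = 0.0488) was not made by quantile normalization (0.194), by limma-voom on reads (0.270) or in the authors' deposited table (FDR 0.139). It was also lost without Ebf2 KO replicate 2 (0.126) or WT replicate 2 (0.281). Pex11g, of the same family, had 8.10 and 10.7 RPKM in Ebf2 KO and 7.85 and 8.11 in WT (limma adjusted p = 0.513), with a log2 change of -0.32 after centring (0.354).

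**Figure D3:**
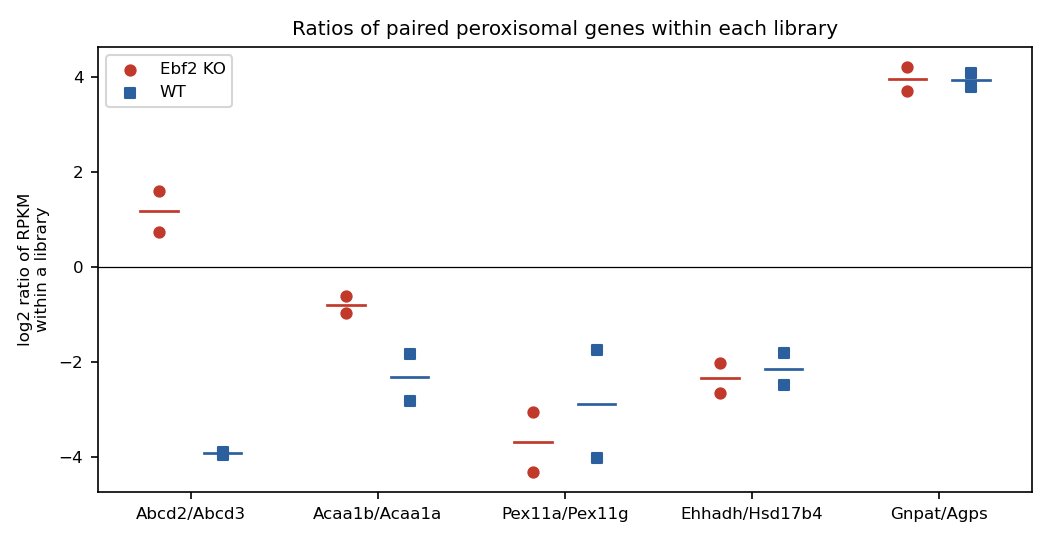
Log2 ratio of RPKM between paired genes within each library, with 1 point per Ebf2 KO or WT library and a bar at each genotype's mean. The Abcd2 to Abcd3 log2 ratio is 1.62 and 0.75 in Ebf2 KO and -3.94 and -3.88 in WT, and the Acaa1b to Acaa1a ratio also does not overlap, while the other pairs do.

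The make-up of the peroxisomal RNA was compared as shares of its sum, in which Ech1 ranked first in every library. All 35 genes together summed to 1745 and 1706 RPKM in Ebf2 KO and to 1689 and 2243 in WT, overlapping groups. Ech1 held 30.5% and 34.3% of that sum in Ebf2 KO, against 49.2% and 65.0% in WT. Without Ech1 the sum was 1213 and 1121 RPKM in Ebf2 KO and 858 and 784 in WT, so those groups did not overlap. This sum was not centred. On RPKM 65.4% of all genes were higher in Ebf2 KO without overlap, and the median log2 change of all genes was 0.45. Scp2 held 16.2% and 15.9% in Ebf2 KO, against 9.86% and 5.09% in WT, and Cat held 9.82% and 9.22% in Ebf2 KO, against 5.90% and 3.75% in WT. Phyh held 3.22% and 3.46% in Ebf2 KO and 7.36% and 5.96% in WT, ranking 7 and 6 of 35 in Ebf2 KO, against 3 and 2 in WT. Acaa1b ranked 11 and 12 in Ebf2 KO and 22 and 17 in WT, and Abcd2 ranked 12 and 14 in Ebf2 KO and 31 and 32 in WT. These shares add up within a library, so a lower share of Ech1 raises the shares of the others, and no test was made on them.

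**Figure D4:**
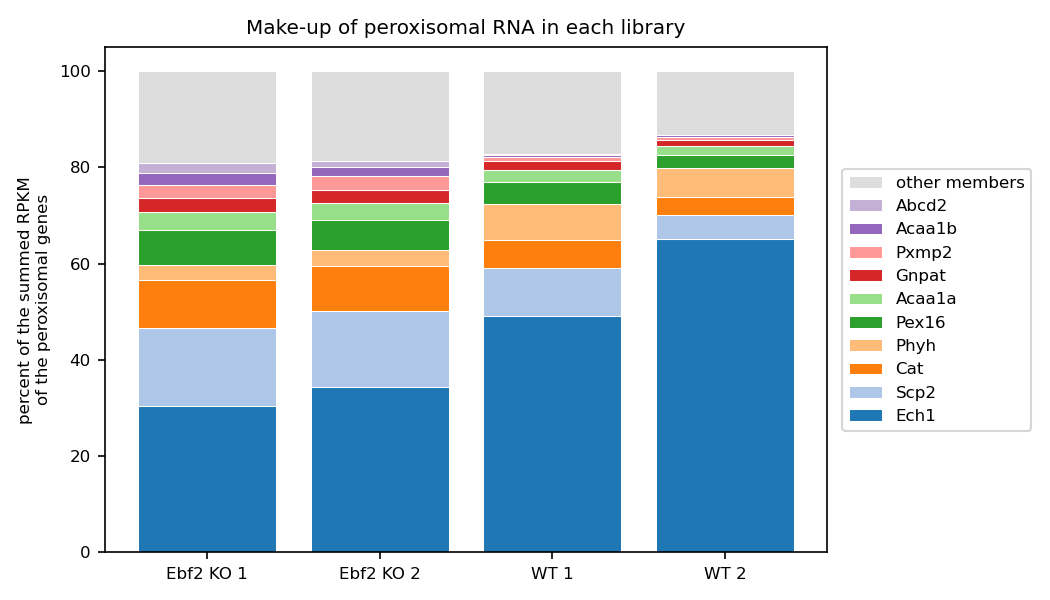
Stacked bars of the share of the summed RPKM of the 35 genes in each library, in percent, for 10 genes and the remainder in grey. Ech1 holds 30.5% and 34.3% in Ebf2 KO and 49.2% and 65.0% in WT, and Scp2 and Cat hold larger shares in both Ebf2 KO libraries.

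Further peroxisomal genes, taken from a list of 54 of which 41 were listed in the table, were counted in the same way. On RPKM 8 were called higher and 4 lower, where 24.4% and 3.54% of all genes were, and after centring 3 and 7, where 8.42% and 10.3% were. The lowest p belonged to Slc27a2, an acyl-CoA synthetase for very long-chain fatty acids of peroxisomes and endoplasmic reticulum. It had 0.0541 and 0.0934 RPKM in Ebf2 KO (22 and 35 reads), against 15.9 and 16.1 RPKM in WT (7312 and 6550 reads). The Ebf2 KO libraries thus held almost no Slc27a2 RNA, a 217-fold lower mean. Its log2(RPKM + 1) change of -3.99, which understates a gene this low, had a limma adjusted p of 0.000382, with -4.51 and 1.87e-06 after centring. Xdh, xanthine dehydrogenase of purine breakdown, had 8.84 and 10.1 RPKM in Ebf2 KO and 1.55 and 1.72 in WT and rose 5.78-fold (limma adjusted p = 0.00342). Acbd4, an acyl-CoA-binding protein that in human cells tethers peroxisomes to the endoplasmic reticulum, had 66.7 and 49.5 RPKM in Ebf2 KO and 17.3 and 14.2 in WT and rose 3.69-fold (0.00374). Phyhd1, a relative of Phyh, had 15.8 and 17.6 RPKM in Ebf2 KO and 3.89 and 5.61 in WT and rose 3.51-fold (0.00609). These 3 genes also passed after centring (0.00123, 0.0190 and 0.00654), with non-overlapping groups in each case. The list was compiled by symbol, and whether the products of Xdh and Phyhd1 lie in peroxisomes of this tissue was not tested. Fis1, a fission adaptor of peroxisomes and mitochondria, had 102 and 121 RPKM in Ebf2 KO and 54.5 and 52.9 in WT. It rose 2.08-fold on RPKM (0.0133) but not after centring (0.286).

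Mitochondrial fatty acid oxidation, the most alike pathway, is set beside these values. Of its 18 genes, 15 were called lower and 1 higher on RPKM, where 3.54% and 24.4% of all genes were. After centring 16 were called lower and 0 higher, where 10.3% and 8.42% of all genes were. At an unadjusted limma p under 0.05, 17 were lower and 1 higher on either scale. Its median log2 change was -1.59 on RPKM, against 0.35 for the peroxisomal genes and 0.45 for all genes. Cpt1b, the muscle and brown fat form of the enzyme that lets long-chain acids enter mitochondria, had 10.4 and 11.7 RPKM in Ebf2 KO and 212 and 241 in WT. Whether the medians of these lists differ was not tested.

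Promoters of 29 of the 35 genes were in the RefSeq table, 33 promoters in all, and the 250 bases before each start were searched on both strands. The palindromic EBF motif, TCCC and GGGA with 2 bases between them, occurred in 0 of the 33 promoters and in 0.779% of all 32851 promoters. The paired element of PPAR and RXR, AGGTCA repeated after a gap of 1 base, also occurred in 0, and in 0.0335% of all promoters. The single AGGTCA, which the paired element contains, occurred in 3 of the 33, of Cat, Pex11g and Scp2, and in 14.0% of all promoters. The NRF1 element occurred in 2 of the 33, of Abcd3 and Pex11g, and in 3.74% of all promoters, and CCAAT in 15 of the 33, belonging to 14 genes, and in 33.8% of all promoters. These are matches of letters in a short window, described without a test.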

How the data were processed

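Polyadenylated RNA of brown adipose tissue was sequenced in 4 libraries, 2 of each genotype, per the labels. The libraries were made with a TruSeq kit, per the labels' protocols. STAR, edgeR and the mm9 build are named in the submitters' processing notes; the versions, the tool that counted reads, its gene models and its use of strand were not given in the sources used here. Per the file headers, the authors deposited 1 table that holds the RPKM of each library and genotype mean, a log2 fold change, a mean log2 CPM, and the p-value and FDR of their test. Its lowest gene had a highest RPKM of 0.502. Log2 ratios of mean RPKM lay 0.637 above the deposited log2 fold change at the median (SD 0.0299, 10365 genes), so the authors' test and the RPKM values were scaled differently.

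Log2(RPKM + 1) of the 4 libraries was fitted with limma 3.58.1 (R 4.3.3, trended variance), genotype being the single term. Benjamini-Hochberg adjustment ran over 12165 genes, at a threshold of 0.05. Fold values are ratios of mean RPKM; a log2 change of RPKM + 1 is smaller than the true log2 ratio, most of all for low genes. Whole reads were recovered from the RPKM values for 100% of genes in all 4 libraries, within 0.0001 reads; for 630 genes a factor common to length and reads was restored from the deposited log2 CPM. Limma-voom on these counts, with median-ratio scaling, was one alternative and called 979 genes higher and 1034 lower. The others were median centring, quantile normalization, a pseudocount of 0.1, a mean of at least 5 RPKM, no variance trend, the replicate number as a block, each library left out, and the authors' deposited results. Leaving out each library together with centring was chosen after seeing the data.

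The fit was tested on simulated data of 12165 genes for Ebf2 KO against WT. It called 50 of 50 genes with a log2 change of 2, 49 of 50 with -2, 26 of 50 with 1, 22 of 50 with -1, and 9 of 11965 unchanged genes. The simulated libraries shared the same make-up and varied with a coefficient of variation of 20%. These counts therefore do not cover the difference in scaling between the genotypes of the real data. The members and lists were chosen with earlier results of these data known. Any of the 35 genes could be named; of the other lists, the 5 genes with the smallest p. No library repeated another: replicates differed by a chi-square per gene of 430 in Ebf2 KO and 419 in WT.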

Additional observations from a re-analysis of the deposited data

How the results depend on the processing

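Of the 35 peroxisomal genes, 9 were called higher and 2 lower on RPKM, against 3 and 7 after median centring, 3 and 5 after quantile normalization, 3 and 6 by limma-voom on reads, 3 and 8 in the authors' deposited table, and 15 and 4 with the replicate block. Over all genes the counts of 2971 and 431 became 1024 and 1253, 1048 and 1010, 979 and 1034, 1325 and 1277, and 6325 and 746 in the same settings, and a mean of at least 5 RPKM left 1717 higher. The other peroxisomal genes had 8 and 4 on RPKM, and 3 and 7, 3 higher, 3 and 7, 3 and 11, and 16 higher in those settings, and the mitochondrial list had 0 higher after centring, quantile normalization and limma-voom. The replicate numbers are not shown to pair the libraries: same-numbered deviations correlated at 0.348 with 2 pairs only.

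With 1 library left out the members' counts ranged from 4 to 9 higher and 2 to 5 lower, and with centring from 2 to 3 and 3 to 7. All genes ranged from 810 to 4477 and 166 to 561, and with centring from 415 to 904 and 578 to 1094 (724 and 1092 without WT replicate 2, 727 lower without Ebf2 KO replicate 2). The other peroxisomal genes ranged from 3 to 10 and 1 to 4, and with centring from 2 to 3 and 2 to 8. The mitochondrial list ranged from 0 to 1 and 9 to 17, and with centring from 0 to 1 and 8 to 15. Among called genes, Pex16 reversed to -0.027 without Ebf2 KO replicate 1 and -0.14 without WT replicate 2, both centred, and Gnpat to -0.032 without WT replicate 2. Differences in log2 ratio, with each library left out in turn, ranged from 4.67 to 5.53 (Abcd2 to Abcd3), 1.03 to 2.03 (Acaa1b to Acaa1a), -1.94 to 0.34 (Pex11a to Pex11g), -0.52 to 0.15 (Ehhadh to Hsd17b4) and -0.23 to 0.27 (Gnpat to Agps). The cause of these shifts was not tested. Over the 35 genes and all settings, 445 single values stayed on their side of the threshold, 60 lost a call in the same direction, the 3 reversed values lost theirs too, and 44 gained one. A mean of at least 5 RPKM left 27 of the 35 genes and no value for Ebf2. Of the 5476 genes kept in that fit, 1717 were called higher and 334 lower. The lowest RPKM among the 35 genes, 0.248 for Pex26 in WT replicate 1, rested on 202 reads.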
